A study of Mus musculus with 6 samples.

Results

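A set of 456 H3K27ac regions was called in both low-pigment (LP) libraries of B16 cells and in neither high-pigment (HP) library. The regions came from merging 4 deposited peak lists (LP_1, LP_2, HP_1 and HP_2) wherever peaks shared 1 bp or more, which gave 182956 merged regions. A merged region was a member of the set, called LP-only below, when it held a peak of LP_1 and a peak of LP_2 and none of HP_1 or HP_2, so 0.249% of all merged regions qualified. The members were thus chosen by the peak calls of all 4 libraries, so their peak values are given as a description and no test was run on them.

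B16 F10 is a mouse melanoma line, and all cells grew from a sparse seeding (100 per cm2) in medium with serum and were collected on day 5 of a model in which cultures darken progressively. LP cells and HP cells were 2 fractions of such cultures, separated on a flow cytometer by side scatter, a light-scattering signal that rises with pigment granules. Each fraction had 2 H3K27ac libraries, and 1 IgG library of unsorted cells per replicate number was used by the authors as the control for peak calling. All libraries came from 1 cell line, and nothing in the labels says whether the replicates came from separate cultures. With 2 libraries against 2, an exact two-sided permutation test cannot go below 0.333, so differences between LP and HP carry no p-value.

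H3K27ac is the acetylation of lysine 27 on histone H3, placed by the acetyltransferases p300 and CBP and found at active promoters and enhancers. In melanocytes the mark lies along the genes of the pigment programme, which the transcription factor MITF drives together with SOX10. A peak caller reports a site only where fragments pile up beyond the local background, so a site listed for LP and not for HP can differ from an HP site by very few fragments. In bulk material a low pileup does not tell fewer cells with the mark apart from less of the mark per cell.

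The LP libraries held 11467942 and 15353176 fragments and the HP libraries 11483830 and 14254904, and the lists held between 57942 and 71529 peaks. Of 8 melanocyte marker genes, 5 and 8 had a peak within 1 kb of a transcription start site (TSS) in the LP lists and 7 and 7 in the HP lists. Of 6 markers of keratinocytes, fibroblasts and leukocytes, 0 and 1 had such a peak in LP and 1 and 3 in HP, and Krt5, Ptprc and Adgre1 had none in any list.

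The sequences that carry the description are shown first, each the 100 bp on either side of the higher LP summit and the summit base, read 5′ to 3′ on the plus strand of GRCm38, the assembly also called mm10. The first 4 are the members with by far the highest pileup, and their capitals mark bases that the assembly masks as repeats. The first lies in an intergenic stretch of chromosome 3, 109636 bp from the nearest protein-coding TSS (Gm8797), at chr3:5860599-5860799. The second lies in an intron of Cdk8, the kinase of the Mediator complex, at chr5:146261011-146261211. The third is intergenic, 25776 bp from the start of Ly6c2, at chr15:75085499-75085699. The fourth is intergenic on chromosome 16, 474406 bp from the start of Olfr161, at chr16:3116243-3116443.
chr3 site: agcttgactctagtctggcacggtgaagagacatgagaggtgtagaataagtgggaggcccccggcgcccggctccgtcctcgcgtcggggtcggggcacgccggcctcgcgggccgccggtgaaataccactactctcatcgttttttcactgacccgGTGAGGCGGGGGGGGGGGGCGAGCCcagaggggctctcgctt
Cdk8 intron: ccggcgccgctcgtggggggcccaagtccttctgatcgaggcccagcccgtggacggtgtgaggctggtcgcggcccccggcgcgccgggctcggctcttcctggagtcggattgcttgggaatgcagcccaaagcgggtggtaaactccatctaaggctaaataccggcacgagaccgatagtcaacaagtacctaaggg
Ly6c2 site: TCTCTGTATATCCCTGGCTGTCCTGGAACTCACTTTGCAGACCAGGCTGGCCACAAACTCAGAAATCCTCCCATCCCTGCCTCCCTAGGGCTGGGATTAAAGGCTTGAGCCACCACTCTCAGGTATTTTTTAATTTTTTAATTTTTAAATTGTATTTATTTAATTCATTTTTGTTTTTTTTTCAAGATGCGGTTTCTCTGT
chr16 site: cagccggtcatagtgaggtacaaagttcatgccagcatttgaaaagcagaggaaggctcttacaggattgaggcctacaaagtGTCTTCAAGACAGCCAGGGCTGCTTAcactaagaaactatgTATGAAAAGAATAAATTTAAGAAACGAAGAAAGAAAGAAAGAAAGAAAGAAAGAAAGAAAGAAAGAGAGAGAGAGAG

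The next 3 windows belong to members at or near genes, 2 of them CpG-rich. In the windows of Pou3f1 (chr4:124657898-124658098, coding sequence) and Esr1 (chr10:4712597-4712797, coding sequence) the capitals mark CpG dinucleotides, 28 and 19 of them. In the intergenic window upstream of Myc (chr15:61961562-61961762) they mark a match to an AP-1 site.
Pou3f1: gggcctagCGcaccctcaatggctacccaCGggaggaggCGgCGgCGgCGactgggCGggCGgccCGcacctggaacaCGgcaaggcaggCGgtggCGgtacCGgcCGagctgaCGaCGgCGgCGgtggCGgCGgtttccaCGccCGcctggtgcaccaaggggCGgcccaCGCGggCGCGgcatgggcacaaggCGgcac
Esr1: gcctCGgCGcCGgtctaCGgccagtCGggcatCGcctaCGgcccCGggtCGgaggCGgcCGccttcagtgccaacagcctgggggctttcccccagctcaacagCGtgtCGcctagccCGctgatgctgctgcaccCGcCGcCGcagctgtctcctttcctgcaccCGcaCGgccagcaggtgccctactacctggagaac
Myc upstream: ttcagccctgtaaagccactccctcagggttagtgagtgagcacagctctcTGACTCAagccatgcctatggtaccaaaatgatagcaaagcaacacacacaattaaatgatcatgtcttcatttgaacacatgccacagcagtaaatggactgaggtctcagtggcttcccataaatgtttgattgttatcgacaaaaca

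The last 2 windows show a motif of the pigment programme and a tandem repeat. The capitals in the Asxl1 intron (chr2:153379073-153379273) mark 2 matches to MITF sites, and those in the intergenic window 64349 bp from the start of Rad23b (chr4:55285399-55285599) mark the longest perfect tandem run among the members, 130 bp with a period of 8 bp.
Asxl1 intron: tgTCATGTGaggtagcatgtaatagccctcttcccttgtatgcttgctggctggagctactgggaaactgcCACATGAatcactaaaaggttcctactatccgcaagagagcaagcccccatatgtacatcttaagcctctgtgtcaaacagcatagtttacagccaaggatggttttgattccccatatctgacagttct
Rad23b site: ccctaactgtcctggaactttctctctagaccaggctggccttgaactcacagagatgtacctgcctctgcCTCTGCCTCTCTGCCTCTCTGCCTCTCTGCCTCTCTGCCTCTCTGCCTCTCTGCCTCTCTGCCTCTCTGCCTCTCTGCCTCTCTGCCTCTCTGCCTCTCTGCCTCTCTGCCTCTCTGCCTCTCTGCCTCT

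LP-only regions were the rarest of the 6 ways in which a region could be called in exactly 2 lists. Both HP lists alone shared 7204 regions (3.94% of all merged regions), and LP_2 shared 4184 with HP_2 alone. The other mixed pairs shared 1065 (LP_2 and HP_1), 792 (LP_1 and HP_1) and 764 (LP_1 and HP_2). LP_2 and HP_2 share a replicate number and an IgG control, and so do LP_1 and HP_1. Read against the regions called in both libraries of a population, 3.55% of the 12851 regions common to the LP lists had no HP peak, and 27.8% of the 25913 regions common to the HP lists had no LP peak. Each library also called regions that no other list held, 39776 in LP_1, 39418 in LP_2, 31328 in HP_1 and 38949 in HP_2. The 12851 regions common to the LP lists were thus fewer than those of either LP library alone.

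**Figure D1:**
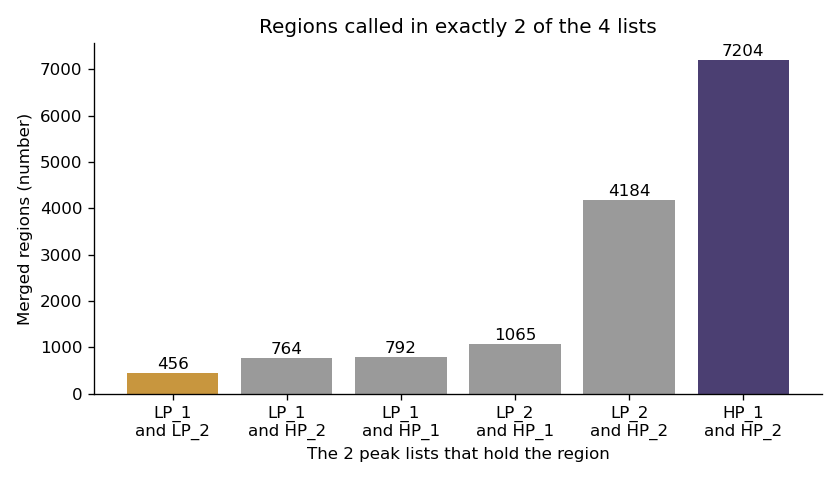
Number of merged regions held by exactly 2 of the 4 peak lists, with 1 bar for each pair of lists. The LP pair has 456 regions, fewer than any mixed pair, and the HP pair has 7204.

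LP-only peaks had the pileup of a typical peak of their lists and less than that of regions called in all 4 lists. The pileup, the number of fragments over the summit as deposited and not scaled for depth, had a median of 7 in LP_1 and 10 in LP_2, with 5 and 6 as the lowest values. The median over all peaks was 7 in the LP_1 list and 11 in the LP_2 list, and regions called in LP_1 alone or LP_2 alone had 7 and 10. The members' 90th percentile was 12 in LP_1 and 15 in LP_2. The regions called in all 4 lists had medians of 28 and 40 fragments in the same libraries. Regions held by exactly 1 LP and 1 HP list were close to the members. Their LP_1 median was 7 with either HP list, and their LP_2 median was 11 with HP_1 and 12 with HP_2. Per 1000000 fragments the members had medians of 0.610 in LP_1 and 0.651 in LP_2, and 221 of 456 were higher in LP_2, so neither library stood above the other after scaling. Fold enrichment over the local background had medians of 4.06 and 3.98. The pileup was under 10 in both LP libraries in 162 members (35.5%).

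By −log10 q-value the members sat in the middle and lower part of each list. Their median rank was at 54.3% of the LP_1 list and 60.4% of the LP_2 list, counted from the strongest peak. Only 3 members in LP_1 and 2 in LP_2 ranked among the best 10% of their list. In LP_1, 114 members (25%) had a −log10 q-value of 2 or less, and in LP_2 84 (18.4%) did.

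The widths of members ran from 223 to 1167 bp with a median of 405.5 bp. The median was 582 bp in HP-only regions, and 206 and 276 bp in regions called in LP_1 or LP_2 alone. The mixed pairs, which like the members join peaks of 2 lists, had medians of 374.5, 426.5, 450 and 505 bp. The summits of LP_1 and LP_2 lay a median of 123.5 bp apart and up to 634 bp apart, and they fell within 100 bp of each other in 189 members (41.4%). In HP-only regions 47.5% of summit pairs did so. The shared stretch was a median of 65.5% of the shorter LP peak, against 91.9% for the 2 HP peaks of an HP-only region. HP-only regions also had higher median pileups than the members, 11 in HP_1 and 15 in HP_2. Overlap was not measured for the mixed pairs. In 173 members (37.9%) less than 50% of the shorter peak was shared.

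Just inside the rule lay a member 108295 bp from the start of Zeb2, a repressor of epithelial genes, with 13 fragments in LP_1 and 8 in LP_2 and a −log10 q-value of 1.30 in LP_2. A member named by Nvl had 12 and 8 fragments and the same −log10 q-value of 1.30 in LP_2. Just outside it were 311 regions called in both LP lists and in 1 HP list, 73 with HP_1 and 238 with HP_2. Their weakest HP call, near Cby3, had 6 fragments and a −log10 q-value of 1.34 in HP_2, beside 9 and 13 fragments in LP. The region near Maea had 8 fragments in each LP library and 5 in HP_2. These are the weakest of the 311, whose HP peaks had a median of 15 fragments and a median −log10 q-value of 7.77.

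Exactly 4 members had 20 or more fragments in both LP libraries, and they were the same 4 whose local background exceeded 5 times the median of the list in both. Local background here is the authors' estimate of fragments expected at the summit, worked back from the pileup and the fold enrichment. The chr3 site had 363 fragments in LP_1 and 285 in LP_2 but fold enrichments of only 2.03 and 2.41, on a background 224 and 71.9 times the median. The Cdk8 intron had 300 and 232 fragments, fold enrichments of 2.17 and 2.42 and a background 174 and 58.1 times the median. The Ly6c2 site had 205 and 307 fragments, fold enrichments of 2.85 and 1.49 and a background 89.7 and 126 times the median. The chr16 site had 61 and 70 fragments, fold enrichments of 3.55 and 1.70 and a background 20.8 and 24.9 times the median. Without these 4, no member had more than 22 fragments in LP_1 or 23 in LP_2.

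**Figure D2:**
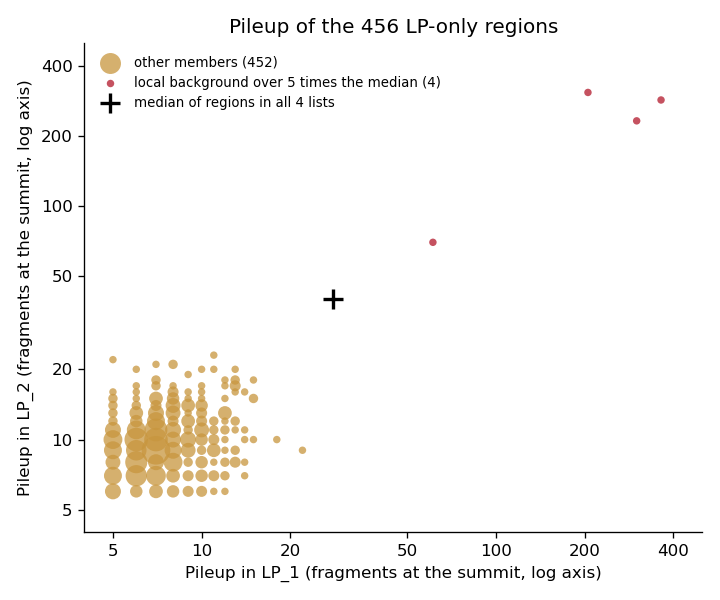
Pileup of the 456 LP-only regions in LP_1 (horizontal axis) and LP_2 (vertical axis), in fragments at the summit on log axes, with point area growing with the number of members at the same values. The 4 members with local background over 5 times the list median lie from 61 and 70 fragments upward, the other 452 lie at or below 22 and 23, and the cross marks the medians of regions in all 4 lists.

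These 4 sites share sequence with other parts of the genome, as the windows printed above show in part. The chr3 site had 19 other stretches of at least 150 bp at 85% identity or more, on 13 chromosomes, with up to 98.3% identity. The Cdk8 intron had 2, the longer of 246 bp at 90.2% identity on chromosome 3. The Ly6c2 site, whose whole window is masked, had 59 on 19 chromosomes. The chr16 site had 10 on 5 chromosomes, and 85.4% of its window's 31-mers occurred more than once in the genome. That share was 28.1% at the chr3 site, 32.7% at the Cdk8 intron and 24.6% at the Ly6c2 site. Such stretches were counted for these 4 sites only, so there is no share over other members to set beside them. The windows of the chr3 site and the Cdk8 intron had 66.7% and 64.7% GC, with 12.4% and 0% of bases masked. Near the chr16 site an HP_2 peak, 6533 bp away, also had a raised background, 7.12 times the median, with 35 fragments. For the other 3 sites the nearest peaks of each HP list lay 6560 to 95323 bp away and had 5 to 11 fragments. Peaks that far away give no HP value at the sites themselves. None of the 455 members with a window in the reference shared a 24-mer with the mitochondrial genome. None did so with the ribosomal RNA locus on chromosome 17 either, but no full 28S ribosomal RNA sequence was compared, so whether the chr3 site or the Cdk8 intron holds ribosomal RNA sequence was not tested. High local background in every calling list was found in 0.877% of LP-only regions (95% Wilson interval 0.342 to 2.23) and 0.0972% of HP-only regions. The share was 0.331% in regions called in all 4 lists and 5.68% in regions shared by LP_1 and HP_1 alone. Regions of both LP lists and 1 HP list had 2.74% (HP_1, 2 of 73) and 1.26% (HP_2, 3 of 238). Regions of LP_1 and LP_2 alone had 0.163% and 0.211%. The number of lists that had to meet the limit differed between these sets.

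Of these 4 sites 3 were among the 4 best-ranked members, and the chr16 site ranked 99. Ranked by −log10 q-value in both lists, the third member was at Mgme1, which encodes a mitochondrial DNA exonuclease, with 13 fragments in LP_1 and 20 in LP_2 and fold enrichments of 7.53 and 7.93. It lay 755 bp from a TSS of the gene and 153 bp from a region called in all 4 lists, and 77.6% of its window is repeat-masked. The fifth, 23457 bp upstream of Myc, the proliferation-driving transcription factor, had 14 and 16 fragments and fold enrichments of 8.57 and 6.68, and the nearest HP peak was 22304 bp away. Introns of Dst, a cytoskeletal linker, and Poldip3 held members of 10 and 14 and of 12 and 15 fragments. A member 17860 bp from a TSS of Pdia5, a protein disulfide isomerase, had 10 and 14. A member 5466 bp from the start of Itpr3, a calcium channel of the endoplasmic reticulum, had 12 and 13.

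Promoters were a minority of the set. Within 3 kb of any annotated TSS lay 96 members (21.1%, 95% Wilson interval 17.6 to 25.03), beside 27.8% of all merged regions, 34.4% of HP-only regions and 83.3% of regions called in all 4 lists. First introns held 82 members (17.98%, all regions 15.5%) and other introns 102 (22.4%, all regions 18.9%). Exons held 30 (6.58%, all regions 4.55%) and intergenic sequence 146 (32.0%, all regions 33.3%). The 2 LP libraries differed in the same respect, with 15.3% promoters among regions of LP_1 alone and 23.3% among those of LP_2 alone, and the members lay between them. The pileup hardly changed with position, with medians of 7.5 and 10 fragments at promoters and 7 and 10 in intergenic sequence.

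**Figure D3:**
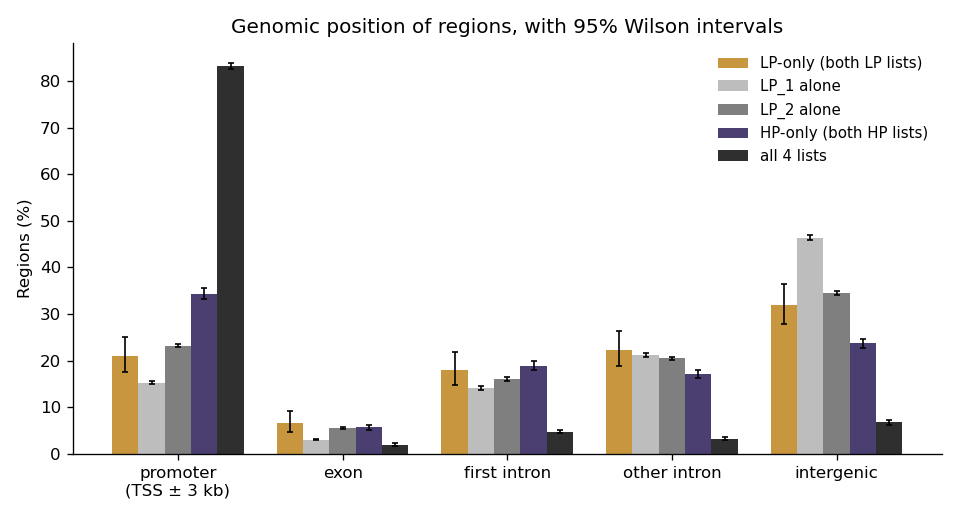
Share of regions (%) by genomic position for LP-only regions, regions of LP_1 or LP_2 alone, HP-only regions and regions in all 4 lists, with 95% Wilson intervals as error bars. LP-only regions have 21.1% promoters and 32.0% intergenic regions, and regions in all 4 lists have 83.3% promoters.

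Within 1 kb of a TSS of a protein-coding gene lay 36 members (7.89%), beside 12.7% of all merged regions and 14.4% of HP-only regions. Regions of LP_1 and LP_2 alone had shares of 3.45% and 7.64%. The 36 members had 5 to 15 fragments in LP_1 and 7 to 23 in LP_2. For 23 of the 36 the nearby TSS was an internal one, over 1 kb from the most upstream start of the gene. At that most upstream start, 25 of the 36 genes had an HP peak within 1 kb and 21 had a region called in all 4 lists. Over all protein-coding genes, 48.8% had a region called in all 4 lists in the gene or within 3 kb of it, a wider window than the 1 kb used here, and the 2 shares were not compared by a test.

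Pou3f1, a POU transcription factor of neural and glial cells, had a member of 15 fragments in both LP libraries, 951 bp from its TSS and in coding sequence. A region of LP_2 and HP_2 lay 257 bp away. Esr1, the oestrogen receptor alpha gene, had a member at an internal TSS, 101058 bp from its first, with 9 and 14 fragments. The summits of this member were 634 bp apart and the peaks shared 47 bp, the widest gap between summits in the set. Ralgds, an exchange factor for Ral GTPases, had 13 and 18 fragments, 317 bp from a region called in all 4 lists. Mfsd2b, a sphingosine-1-phosphate exporter, had 11 and 23 fragments at its first TSS, and no HP peak lay within 14436 bp. Kpna2, a nuclear import adaptor, had 12 and 9 fragments at an internal TSS, and its window was 63.2% masked. Pacsin1, an endocytic adaptor of neurons, had 7 and 13 fragments in untranslated sequence at its first start, and Lcn4 and the predicted gene Gm28374 had 7 and 15 and 9 and 10.

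In 8 of the 36 genes the most upstream start had no region but the member itself, or none at all. They are Trpm1, Pacsin1, Gm28374, Susd5, Grid1, Pabpc4, Fam107b and Cckar, named here after their values were seen. Grid1, a glutamate receptor subunit of the brain, had 14 and 11 fragments in untranslated sequence at its first start and no HP peak within 36714 bp, and Cckar, the cholecystokinin A receptor, had 8 and 10 and none within 30382 bp.

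The widest member lay in Trpm1, which encodes a cation channel of melanocytes and is the host gene of a melanocyte microRNA. It spanned 1167 bp (chr7:64201564-64202730) with 8 fragments in LP_1 and 16 in LP_2, its summit lay in coding sequence, and an HP_2 peak lay 1336 bp away. The nearest TSS, 332 bp away, was internal, 49227 bp from the first start, which had no peak of any list within 1 kb. The other wide members were in an intron of Adamts12 (1108 bp, 7 and 11 fragments), at Grid1 (1032 bp), in Dgat2 (967 bp, 14 and 10) and near Oprl1 (924 bp, 7 and 9). In all 5 the summits of the replicates were 174 to 549 bp apart, and in the last 4 the LP peaks shared 11 to 124 bp. The Adamts12 window was 84.6% masked, and 61.4% of its 31-mers occurred more than once in the genome. The Dgat2 window was 52.2% masked, with 83.0% such 31-mers and a tandem run of 75 bp. Local background at Dgat2 was 5.81 times the list median in LP_1 and 1.23 times in LP_2. The windows of Trpm1, Grid1 and Oprl1 were 0%, 13.4% and 21.9% masked.

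Of 20 pigmentation genes, 2 had a member in the gene or within 3 kb of it (10.0%), Trpm1 and Gnaq. Gnaq, the G-protein subunit mutated in blue naevi, had a member of 10 and 7 fragments in an intron, 1942 bp from a TSS and 1090 bp from a region called in all 4 lists. Among the same 20 genes, 13 had an HP-only region, Mitf, Tyr, Tyrp1, Dct, Pmel and Sox10 among them, and 14 had a region called in all 4 lists. Trpm1 and Gnaq were themselves among the 13. Of 20 proliferation genes, 2 had a member (10.0%), Cdk8 with the high-background site printed above and Cdk6, the partner of D-type cyclins. The Cdk6 member had 6 and 13 fragments in the first intron, and its window was 67.7% masked. Among the proliferation genes 4 had an HP-only region, Cdk6 among them, and 20 had a region called in all 4 lists. Of 20 stem-like and dedifferentiation genes 0 had a member, and 7 had an HP-only region. Over all 21992 protein-coding genes 1.35% had a member, 15.96% had an HP-only region and 48.8% had a region called in all 4 lists. These counts take no account of gene length.

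The 1514 chemosensory receptor genes of the annotation had 2 members (0.132%), in Olfr56 (7 and 9 fragments) and Vmn2r22 (6 and 10 fragments). Both had pileups near the medians of the set. The Olfr56 window was 32.3% masked, and the Vmn2r22 window was 65.2% masked with a tandem run of 47 bp.

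Members lay at all distances from HP peaks. The nearest HP peak was a median of 5603.5 bp away, with quartiles at 1164 and 15997 bp. The closest gap was 2 bp and the widest 126248 bp. Within 1 kb lay 101 members (22.1%, 95% Wilson interval 18.6 to 26.2), and 13 of them were within 100 bp. Of regions called in LP_1 alone 9.10% lay within 1 kb of an HP peak, and of those in LP_2 alone 13.7%. HP-only regions were nearer to peaks of the other population, with 36.3% within 1 kb of an LP peak and a median of 1899 bp.

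**Figure D4:**
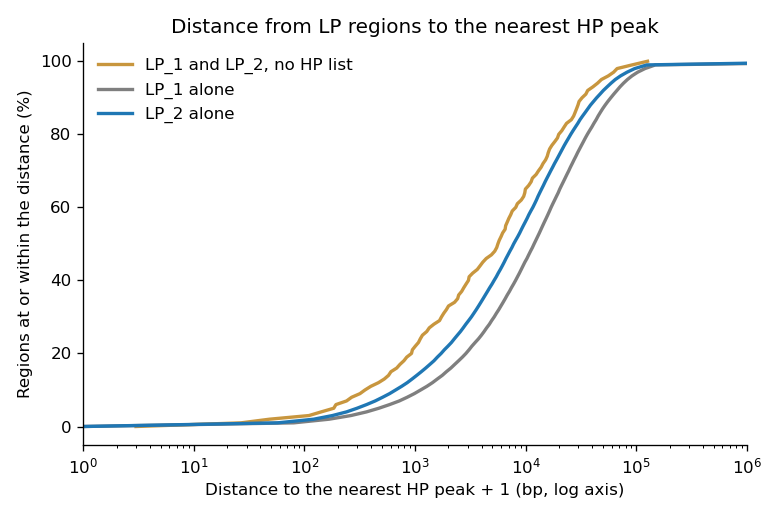
Cumulative share of regions (%) by distance to the nearest HP peak plus 1 bp (log axis), for LP-only regions and for regions of LP_1 or LP_2 alone. The median is 5603.5 bp for LP-only regions, 11909.5 bp for LP_1 alone and 7782 bp for LP_2 alone.

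Among the 101 members within 1 kb, the nearest HP peak stood in a region of HP_2 alone in 40 cases and of HP_1 alone in 24. It stood in a region called in all 4 lists in 12 and in an HP-only region in 13. Over all merged regions, those of HP_2 alone (38949) and HP_1 alone (31328) were also the most frequent with an HP peak. Regions called in all 4 lists numbered 12084 and HP-only regions 7204. The members within 1 kb had medians of 8 and 10 fragments, 413 bp and 24.8% promoters, and the 355 farther away had 7 and 10 fragments, 403 bp and 71 promoter regions. These differences were not tested.

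The closest members were near Cd82, a tetraspanin, 2 bp from an HP peak with 7 and 13 fragments, and in introns of Ctdspl (6 bp), Msi2 (6 bp), Vps8 (7 bp) and Rapgef2 (18 bp). In Slc38a2, an amino acid transporter, 2 members lay 296 bp apart, the only pair of members within 10 kb of each other. They had 7 and 8 and 6 and 10 fragments and lay 103 and 115 bp from an HP_2 peak called in no other list. The farthest members were in Lrp1b (126248 bp, 9 and 14 fragments), 896649 bp from the start of Celf2 (112789 bp, 6 and 9), 88964 bp from Lhx1 (100282 bp, 8 and 14), 705508 bp from Iqcm (96203 bp, 7 and 10) and 53586 bp from Gm7271 (94548 bp, 12 and 13). The Lrp1b window was 88.1% masked and 86.0% of its 31-mers occurred more than once in the genome.

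Repeat sequence was about as frequent as over all regions. At least 50% of the summit window was masked in 113 of 455 members (24.8%), beside 22.9% of all merged regions, and at least 50% of the 31-mers were multi-copy in 53 (11.6%), beside 11.6%. Both shares were higher than in HP-only regions, at 15.6% and 7.08%. A perfect tandem run of 40 bp or more was found in 26 members (5.71%, 95% Wilson interval 3.93 to 8.24), beside 4.24% of all regions, 3.24% of HP-only regions, 7.19% of LP_1 alone and 3.03% of LP_2 alone. With any of the 3 features, 121 members (26.6%) could be called repeat-like, beside 25.7% of all regions. The best-ranked members with a tandem run were 25775 bp from the start of Crebbp (10 and 20 fragments, 67 bp with a period of 14 bp) and 7920 bp from Pla2r1 (8 and 13 fragments, 96 bp with a period of 8 bp).

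GC content of the members had a median of 48.8%, against 48.3% for all regions, 51.7% for HP-only regions and 67.7% for regions called in all 4 lists, and 34 of 455 had 60% or more. Over the 455 windows the letters TCATGTG or TCACGTG, bound by MITF, were found in 23 (5.05%, all regions 4.57%). CTTTGAT, bound by Lef1, was found in 19 (4.18%, all regions 3.02%). TGAGTCA, bound by AP-1, was found in 21 (4.62%, all regions 3.56%), and the E-box CACGTG, which overlaps TCACGTG, in 9 (1.98%, all regions 2.88%). A run of 6 CA units was found in 17 (3.74%, all regions 2.59%). Both strands were searched, and for each motif the share over all regions lay within the 95% Wilson interval of the members' share. Of the members printed above, the Asxl1 intron had 11 and 9 fragments and the Myc upstream site 14 and 16.

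Chromosome 2 held most members with 50 (11.0%, all regions 8.21%), followed by chromosome 1 with 42 and chromosome 15 with 33 (7.24%, all regions 4.83%). Chromosome X held 3 (0.658%, all regions 2.06%), near Btbd35f5, Bcor and Stk26. Chromosome Y held 0 (all regions 0.0224%), which allows a share of up to 0.658% (3 of 456, not a Wilson limit, counting error only). The share over all regions lay outside the members' 95% Wilson interval for chromosomes 2, 15 and X, and for chromosome 4, which held 19 (4.17%, all regions 6.46%), and with 21 chromosomes looked at no test was made.

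Which regions were LP-only depended on the settings. With a q-value of at most 0.01 in all lists, 287 LP-only regions were found, 276 of them at the 456, and at 0.001 there were 133 and 120. Requiring the LP peaks to share 50% of both left 183. Allowing gaps of 1000 bp between merged peaks raised the number to 1384 and kept 353 of the 456. With windows of 100 bp on each side of each summit in place of whole peaks the number was 946, of which 50.6% were promoters, and 325 of the 456 were kept. HP-only regions were not counted for the setting with LP peaks sharing 50% of both. Under every setting where they were counted they outnumbered LP-only ones, with between 5048 and 7627.

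**Figure D5:**
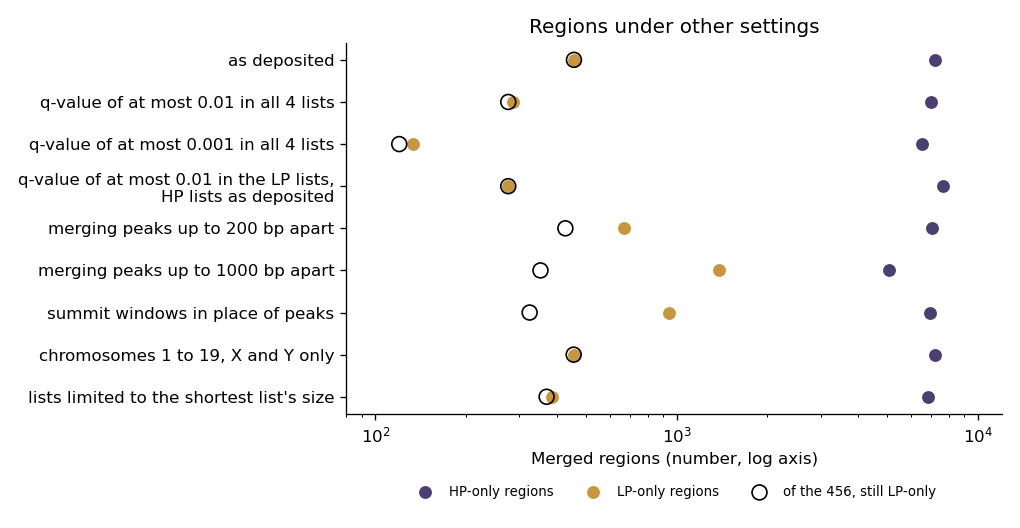
Number of LP-only regions (gold), of HP-only regions (purple) and of the original 456 that stayed LP-only (open circles) under each setting where both were counted, on a log axis. LP-only regions range from 133 to 1384 and HP-only regions from 5048 to 7627, and the ranges do not meet.

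Altogether 32 of the 456 members (7.02%) remained LP-only under each of 9 such alternatives, a list chosen after their values were seen. It included 2 of the high-background sites, the chr3 site and the Cdk8 intron. Of the other 30, the members near Myc (14 and 16 fragments), Itpr3 (12 and 13) and the tandem-repeat sites near Crebbp (10 and 20) and Pla2r1 (8 and 13) ranked among the 6 highest. Introns of Foxp1, a forkhead repressor (8 and 14), of Asxl1, a Polycomb-associated regulator (11 and 9), and of Gng12, a G-protein subunit (10 and 15), were also among them. Of the 32 members, 7 were promoter regions and 4 had at least 50% of the window masked. The nearest HP peak was 1070 bp away at the least. A distance of 1000 bp or less was excluded by the choice itself, because 1 of the alternatives merged peaks up to 1000 bp apart.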

How the data were processed

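LP and HP cells of the B16 F10 line had 2 H3K27ac ChIP-seq libraries each. Per the submitters' processing notes the reads were handled with bcl2fastq 2.20, Trimmomatic 0.33, Bowtie2 2.5.1 and MACS3, on mm10. The authors called narrow peaks in each library with the IgG library that shares its replicate number as control, keeping duplicates, at a q-value of at most 0.05. The fold enrichment ratio and the −log10 q-value (and −log10 p-value) of a peak are the deposited values at its summit, and the deposited pileup signal is the unscaled number of fragments there. Duplicates and multi-mapped reads can therefore raise a pileup.

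Peaks sharing 1 bp were merged. A region's value in a library was that of its highest peak. Members were ranked by the mean of their ranks by −log10 q-value in the LP lists. The text names the 10 best, the 10 best within 1 kb of a protein-coding TSS, members at genes of the lists, the 5 widest, and the 5 closest to and farthest from an HP peak. Local background was (pileup + 1) / fold enrichment − 1. Positions and genes came from GENCODE M21 and sequence from GRCm38, whose repeat masking was used. 1 member on an unplaced scaffold had no window. Copies were sought with BLAST 2.17.0, and all other values were computed with Python 3.11.15, pandas 2.3.3, numpy 2.4.6, numba 0.67.0 and scipy 1.17.1. Intervals on shares are 95% Wilson intervals, and they and the bound on a share of 0 cover counting error only. Merging, distances, overlaps, k-mer copies and tandem runs were checked on simulated data. The members and lists were chosen with earlier results of these data known. The alternatives were stricter q-values, other merging and overlap, summit windows, standard chromosomes, lists of equal size, other TSS and repeat settings, and leaving out libraries. Reads and IgG libraries were not analysed here.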

Additional observations from a re-analysis of the deposited data

How the results depend on the processing

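The number of LP-only regions, 456, followed the settings closely. It was 287 and 133 at q-values of at most 0.01 and 0.001 in all lists, 276 at 0.01 in the LP lists alone, 1384 with peaks merged up to 1000 bp apart, 183 with LP peaks sharing 50% of both, and 946 with summit windows. It was 669, 455 and 385 with peaks merged up to 200 bp apart, on chromosomes 1 to 19, X and Y, and with lists of equal size. Leaving out 1 or more libraries gave 522 to 41875 regions. The ends of that range are HP replicate 1 left out (522) and replicate 2 of both populations left out (41875). Without replicate 1 of both populations there were 41232, without HP replicate 2 there were 727, and without LP replicate 1 or LP replicate 2 there were 39887 and 40279, since 1 LP list then sufficed.

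The promoter share, 21.1%, was 25.6% at a q-value of at most 0.001, 50.6% with summit windows, 11.2% with a TSS window of 1 kb and 15.1% with transcripts of protein-coding genes only. It ran from 15.3% to 32.5% with libraries left out, the highest without HP replicate 2, and was 16.4% without replicate 2 of both populations. In the other 7 alternatives that kept all libraries the share stayed within its 95% Wilson interval. The median distance to an HP peak ranged from 493 bp (summit windows) to 9107 bp (merging up to 1000 bp) with all libraries kept. The number of members at high local background was 3 to 6 over 11 alternatives that kept all libraries. The cause of these shifts was not tested. No test was run on these regions, so no paired analysis was made. At a median of 7 and 10 fragments per member, a site at the same level in HP can be missed by the caller, so absence from the HP lists is not absence of the mark.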
